A study of Mus musculus with 12 samples.

Results

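The 8 genes described here, *Plac8*, *Samd3*, *Dmrta1*, *Cd163l1*, *Sytl3*, *Gas7*, *Plek* and *Baiap3*, were selected by name from 12809 genes measured in mouse lymph node (LN) T cells. They were chosen because earlier results on these same libraries had shown them high in B6 CD8 T cells and not restored in FlipFlop CD4 T cells. Genes of the coreceptor and killer receptor loci were left out of the choice. Every contrast of the levels of the 8 genes below is therefore a description and carries no test. All 8 were in the table and all 8 passed the filter on low values. Levels are given in CPM, read counts scaled to a common library size, and log2 differences are on the scale log2(CPM + 0.5), which understates the change of low genes.

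The libraries fell into 4 groups of 3, all from females. B6 CD4 and B6 CD8 LN T cells came from C57BL/6 mice aged 10 weeks. FlipFlop CD4 and FlipFlop CD8 LN T cells came from mice aged 14 weeks in which each coreceptor locus carries the other's coding sequence, CD4 at *Cd8a* and CD8 at *Cd4*, so that both altered loci were present in every FlipFlop library and absent from every B6 library. The Cd8 allele was first made in a stem cell line of another inbred strain, and strain, age and the altered loci therefore cannot be told apart in any comparison of FlipFlop with B6 cells. Nothing in the labels says which libraries of a strain came from the same mouse, and p-values measure only the spread between these libraries. In sorted bulk cells, fewer expressing cells and less RNA per cell cannot be told apart.

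CD4 helper T cells and CD8 cytotoxic T cells arise from the same thymic precursors, the helper lineage under the transcription factor ThPOK and the cytotoxic lineage under Runx3. Peripheral CD8 T cells include memory-like cells that carry more mRNA for chemokine receptors, killer cell receptors and the machinery of granule release than naive cells do. The 8 genes have different roles. Sytl3 is a synaptotagmin-like protein that binds the vesicle GTPase Rab27, and Baiap3 belongs to the Munc13 family, whose members act in vesicle release. Plek encodes pleckstrin, a phosphoinositide-binding substrate of protein kinase C, and Gas7 is an F-BAR protein of the membrane and actin cytoskeleton. Dmrta1 is a DM domain transcription factor, Cd163l1 is a scavenger receptor cysteine-rich protein known from γδ T cells, Plac8 is a small cysteine-rich protein, and Samd3 carries a SAM domain.

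Of the 8 genes, 7 had a promoter in the RefSeq table (GRCm38.p6), which covers 250 bases before to 50 bases after each listed start, and *Plac8* had a pair of them. These windows were searched on both strands for short motifs of factors active in cytotoxic T cells, chosen after the levels were known. The RUNX motif TGTGGT was found at *Plac8* and *Sytl3* and in 16.8% of all 32851 promoters of the same length. The T-box motif GGTGTGA was found at *Plac8* and *Samd3* and in 3.98% of all promoters. The STAT motif TTCNNNGAA lay at *Sytl3* (8.30% of all promoters) and the ETS motif GGAAGT at *Samd3* (23.8%), and no match overlapped another. The 250 bases before the start are shown, 5′ to 3′ on the gene's strand, for the 3 promoters that held a RUNX or T-box match, with those matches in capitals on whichever strand they lay.
Plac8, chr5:100572206-100572455, minus strand: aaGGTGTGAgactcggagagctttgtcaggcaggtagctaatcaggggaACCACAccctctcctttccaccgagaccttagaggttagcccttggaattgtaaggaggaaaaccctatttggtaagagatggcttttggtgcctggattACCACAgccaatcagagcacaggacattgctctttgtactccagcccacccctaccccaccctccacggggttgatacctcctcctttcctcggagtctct
Samd3, chr10:26229457-26229706, plus strand: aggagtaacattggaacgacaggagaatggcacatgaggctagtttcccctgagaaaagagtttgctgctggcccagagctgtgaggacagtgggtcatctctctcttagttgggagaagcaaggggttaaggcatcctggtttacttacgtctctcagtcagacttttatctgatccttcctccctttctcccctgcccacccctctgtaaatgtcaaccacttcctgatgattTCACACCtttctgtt
Sytl3, chr17:6658809-6659058, plus strand: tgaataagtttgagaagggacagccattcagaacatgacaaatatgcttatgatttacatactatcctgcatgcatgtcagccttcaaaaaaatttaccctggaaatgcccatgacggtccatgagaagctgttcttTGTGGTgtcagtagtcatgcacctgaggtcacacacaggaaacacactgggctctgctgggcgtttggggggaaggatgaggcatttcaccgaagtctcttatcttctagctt
In *Plac8* the T-box match lay at −248 to −242 and RUNX matches at −201 to −196 and −101 to −96, with a further RUNX match from 27 to 32 after the start. In *Samd3* the T-box match lay at −15 to −9, and in *Sytl3* the RUNX match lay at −113 to −108. A match is a description of the letters and was not tested as a binding site.

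The libraries held 26600000 to 33100000 reads on listed genes, so that 3 reads were worth 0.0857 to 0.120 CPM; a level at or under 3 reads is called at the floor. *Cd8a* was at 1472 to 1499.6 CPM in B6 CD8, 138 to 159 in FlipFlop CD8, and under 2 CPM in both CD4 groups, and *Cd4* was at 961 to 1090.3 CPM in B6 CD4, 637 to 719 in FlipFlop CD4 and 40.9 to 43.6 in FlipFlop CD8. *Zbtb7b*, which encodes ThPOK, was at 1.16 to 2.79 CPM in B6 CD8 and FlipFlop CD4 and at 162 to 203 CPM in the helper-lineage groups. The FlipFlop CD8 library of replicate 1 stood apart in genes of cytotoxic cells. *Nkg7*, a protein of cytotoxic granules, was at 67.3 CPM there against 10.1 and 15.1 CPM in the other FlipFlop CD8 libraries. *Gzmm*, a granzyme, was at 20.1 CPM against 0.364 and 0.886, and *Ccl5*, a chemokine of effector T cells, at 164 CPM against 15.3 and 35.8. In the B6 CD4 library of replicate 3, *Nkg7* was at 20.6 CPM against 7.48 and 6.71, and *Ccl5* at 26.6 against 9.47 and 8.84.

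Both vesicle genes remained low in FlipFlop CD4 T cells. *Baiap3* (chr17:25242659-25256364, minus strand, protein coding) was at 19.2, 18.4 and 19.6 CPM in B6 CD8 and at 2.29, 3.49 and 2.79 CPM in B6 CD4. It was at 0.788, 0.942 and 1.23 CPM in FlipFlop CD4 and at 1.38, 0.628 and 1.43 CPM in FlipFlop CD8. Every B6 CD8 library lay above all others, and both FlipFlop groups lay below every B6 CD4 library, so *Baiap3* was low in FlipFlop cells of either lineage. The mean in FlipFlop CD4 was 5.16% of the mean in B6 CD8, a log2 difference of −3.73 ± 0.21 (SE, n = 3 per group), and the helper-lineage pair, FlipFlop CD8 minus B6 CD4, differed by −1.05. *Baiap3* was the only one of the 8 genes with each FlipFlop group wholly below B6 CD4.

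*Sytl3* (chr17:6659093-6738044, plus strand, protein coding) was at 29.7, 25.4 and 25.5 CPM in B6 CD8 and at 2.55, 2.91 and 3.81 CPM in B6 CD4. It was at 3.41, 3.19 and 2.91 CPM in FlipFlop CD4, inside the range of B6 CD4. In FlipFlop CD8 it was at 9.22, 1.70 and 1.33 CPM, and the high library was replicate 1, the library with high *Nkg7*, *Gzmm* and *Ccl5*. The mean of the other FlipFlop CD8 libraries was 1.52 CPM, against 4.09 ± 4.45 CPM (SD, n = 3) with it. FlipFlop CD4 differed from B6 CD8 by −2.90 ± 0.46 (SE) on the log2 scale, and its mean was 11.8% of the B6 CD8 mean.

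The membrane and cytoskeleton genes also stayed near the B6 CD4 level. *Plek* (chr11:16971206-17052381, minus strand, protein coding) was at 21.3, 33.5 and 31.6 CPM in B6 CD8 and at 2.48, 3.42 and 11.1 CPM in B6 CD4. It was at 4.40, 3.08 and 4.09 CPM in FlipFlop CD4 and at 11.1, 4.33 and 6.29 CPM in FlipFlop CD8. The 3 groups other than B6 CD8 overlapped. The highest of them were the B6 CD4 library of replicate 3 and the FlipFlop CD8 library of replicate 1, which also carried the raised *Nkg7* and *Ccl5*; without them the B6 CD4 mean was 2.95 in place of 5.66 CPM and the FlipFlop CD8 mean 5.31 in place of 7.25 CPM. FlipFlop CD4 differed from B6 CD8 by −2.74 ± 0.44 (SE), at 13.4% of its mean. Pleckstrin is also abundant in myeloid cells and platelets. The summed monocyte, macrophage and neutrophil markers were, in replicates 1, 2 and 3, at 17.4, 11.8 and 29.0 CPM in B6 CD8, 30.8, 37.9 and 50.8 CPM in B6 CD4, and 52.3, 37.9 and 57.0 CPM in FlipFlop CD8. They were at most 12.9 CPM in FlipFlop CD4. Their part in the level of *Plek* was not tested.

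*Gas7* (chr11:67455437-67688990, plus strand, protein coding) was at 5.77, 5.44 and 3.45 CPM in B6 CD8 and at 0.150, 0.194 and 0.306 CPM in B6 CD4. It was at 0.230, 0.0362 and 0.112 CPM in FlipFlop CD4, which is 7, 1 and 3 reads, and at 0.868, 0.265 and 0.572 CPM in FlipFlop CD8. FlipFlop CD4 overlapped B6 CD4, and its highest library held 7 reads where the lowest FlipFlop CD8 library held 8. It differed from B6 CD8 by −3.09 ± 0.24 (SE), at 2.58% of its mean.

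*Plac8* (chr5:100553725-100572245, minus strand, protein coding) differed between B6 CD8 and B6 CD4 by 4.70 ± 0.40 (SE) on the log2 scale. It was at 117, 142 and 175 CPM in B6 CD8 and at 2.63, 4.33 and 10.4 CPM in B6 CD4. It was at 11.7, 4.49 and 8.03 CPM in FlipFlop CD4 and at 6.97, 5.36 and 5.34 CPM in FlipFlop CD8. B6 CD8 stood alone, and the other 3 groups overlapped. FlipFlop CD4 differed from B6 CD8 by −4.15 ± 0.40 (SE), at 5.60% of its mean, and from FlipFlop CD8 by 0.34.

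*Cd163l1* (chr7:140218267-140231145, plus strand, protein coding) was at 4.91, 6.64 and 5.57 CPM in B6 CD8 and at 0.150, 0.291 and 0.245 CPM in B6 CD4. In FlipFlop CD4 it was at the floor, with 2, 2 and 0 reads, and it was at 0.450, 0.331 and 0.171 CPM in FlipFlop CD8. B6 CD4 held 4, 9 and 8 reads and FlipFlop CD8 held 14, 10 and 6. Against the floor of 3 reads per library, the B6 CD8 mean was at least 53.7-fold higher than in FlipFlop CD4.

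*Samd3* and *Dmrta1* were raised in part in FlipFlop CD4, and here the label of a gene that is not restored holds less well. For *Samd3* the rise over B6 CD4 was seen in both FlipFlop groups. These overlapped, with a log2 difference of 0.65 ± 0.52 (SE) for FlipFlop CD4 minus FlipFlop CD8, so it was not particular to the cytotoxic lineage. *Samd3* (chr10:26229707-26272172, plus strand, protein coding) was at 12.9, 15.6 and 12.9 CPM in B6 CD8 and at 0.564, 0.581 and 0.858 CPM in B6 CD4. It was at 2.86, 4.06 and 10.9 CPM in FlipFlop CD4 and at 8.61, 1.42 and 2.06 CPM in FlipFlop CD8. Both FlipFlop groups lay between the B6 groups without overlapping either, and FlipFlop CD4 reached 43.0% of the B6 CD8 mean, a log2 difference of −1.35 ± 0.52 (SE). Its highest library was replicate 3, and without it the FlipFlop CD4 mean was 3.46 in place of 5.92 CPM. Without FlipFlop CD8 replicate 1, the mean of that group was 1.74 in place of 4.03 CPM.

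*Dmrta1* (chr4:89679436-89694772, plus strand, protein coding) was at 4.46, 6.72 and 4.84 CPM in B6 CD8 and at the floor in B6 CD4, with 0, 1 and 1 reads. It was at 0.164, 0.435 and 2.42 CPM in FlipFlop CD4 and at 0.225, 0.0992 and 0.143 CPM in FlipFlop CD8. Against the floor of 3 reads per library, B6 CD8 was at least 53.1-fold higher than B6 CD4. FlipFlop CD4 differed from B6 CD8 by −2.24 ± 0.41 (SE), at 18.8% of its mean, but replicate 3 held 65 reads while replicates 1 and 2 held 5 and 12, and without replicate 3 the mean was 0.300 in place of 1.01 CPM. In that library *Eomes*, a T-box factor of cytotoxic cells, was at 91.8 CPM against 42.2 and 60.7 CPM in replicates 1 and 2, while the other 5 NK cell markers summed to 7.81 CPM against 8.63 and 7.50 CPM. The genes that set other libraries apart above were not highest in FlipFlop CD4 replicate 3. There *Nkg7* was at 293 CPM against 296 and 297 CPM in replicates 1 and 2. *Gzmm* was at 1.75 CPM against 1.94 and 1.09, and *Ccl5* at 16.8 against 37.2 and 18.5. The part of *Eomes* in the *Dmrta1* and *Samd3* levels was not tested.

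**Figure D1:**
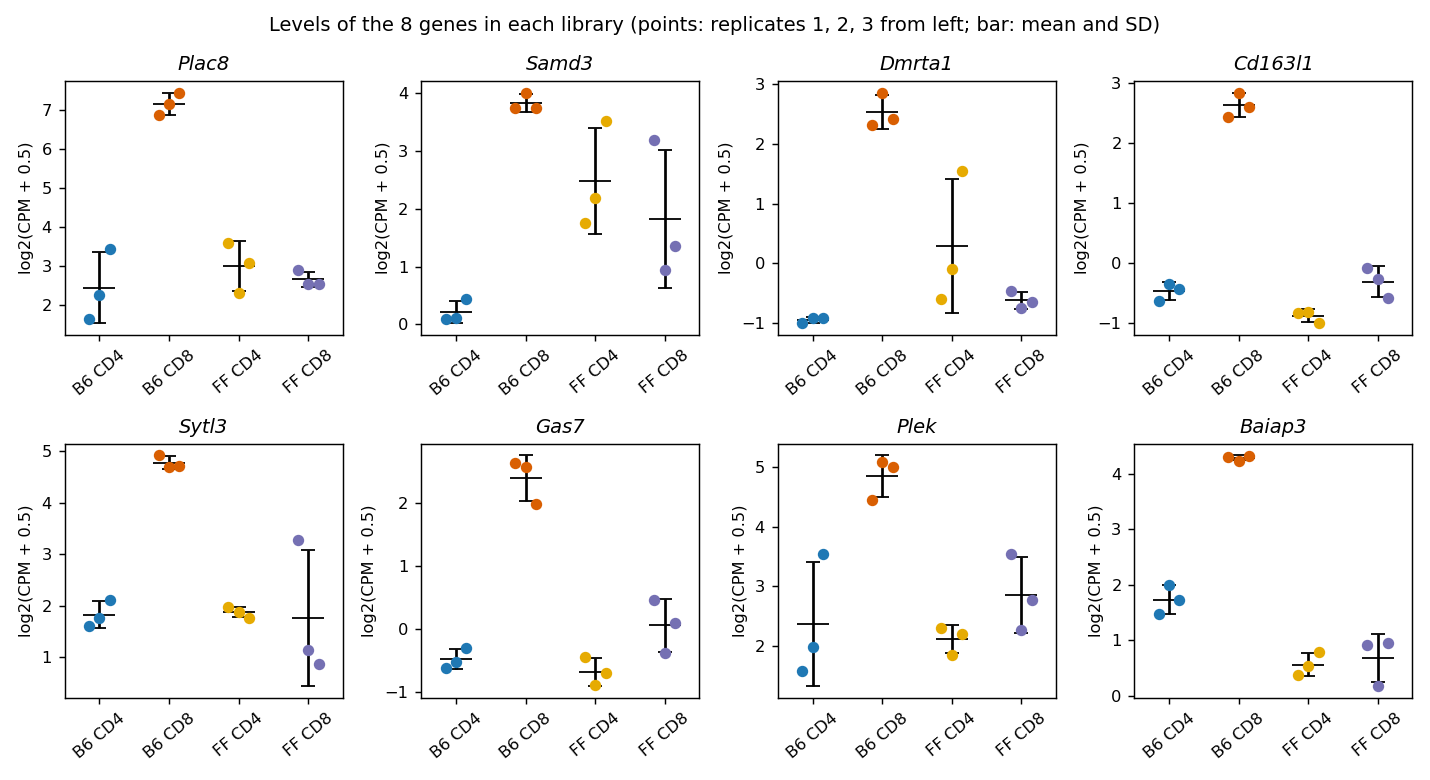
Level of each of the 8 genes as log2(CPM + 0.5) in the 3 libraries of each group (FF, FlipFlop); points are libraries, bars are the mean and SD of the log2 values, and each panel has its own scale. The 3 B6 CD8 libraries sit above every other library in all 8 panels, and FlipFlop CD4 replicate 3 is the highest of its group for *Samd3* and *Dmrta1*.

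Per kilobase of exon (GENCODE M21), the 8 genes ranked in B6 CD8 from *Plac8* at 90.7 ± 18.3 CPM per kb (SD, n = 3) through *Plek* at 6.42 ± 1.46, *Sytl3* at 5.31 ± 0.483, *Baiap3* at 3.73 ± 0.123, *Samd3* at 3.64 ± 0.406, *Cd163l1* at 1.48 ± 0.228 and *Dmrta1* at 1.27 ± 0.289 to *Gas7* at 0.431 ± 0.111. In this order *Plek* and *Sytl3*, *Baiap3* and *Samd3*, and *Cd163l1* and *Dmrta1* did not differ beyond their spread.

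The libraries of B6 CD8 lay above those of B6 CD4 for 8 of 8 genes, where 17.2% of all 11595 tested genes did so, and above those of FlipFlop CD4 for 8 of 8, where 15.7% did so. B6 CD8 lay above FlipFlop CD8 for 8 of 8 genes as well, where 31.9% did so. The genes were chosen for these contrasts or for being high in B6 CD8, and nothing is read from these 3 counts. Between FlipFlop CD4 and B6 CD4, 1 gene lay wholly above (*Samd3*; 18.7% of all genes did), 1 wholly below (*Baiap3*; 21.8%), and 4 overlapped. The other 2 had a group at the floor and are counted in neither direction: *Cd163l1* had 2, 2 and 0 reads in FlipFlop CD4 against 4, 9 and 8 in B6 CD4, and *Dmrta1* had 5, 12 and 65 reads against 0, 1 and 1. Between FlipFlop CD8 and B6 CD4, *Samd3* lay above (20.2% of all genes) and *Baiap3* below (23.4%). For *Dmrta1* the same comparison set 7, 3 and 5 reads against 0, 1 and 1, values that did not overlap, but 4 of these 6 libraries were at or under the floor of 3 reads and the gene is counted in neither direction. Between the FlipFlop groups, 0 genes lay wholly above in FlipFlop CD4 (25.6% of all genes did) and 2 had lower values in each FlipFlop CD4 library, *Cd163l1* and *Gas7* (21.6%). These rest on 2, 2 and 0 reads against 14, 10 and 6 for *Cd163l1*, and on 7, 1 and 3 reads against 27, 8 and 20 for *Gas7*, with 5 of the 6 FlipFlop CD4 values at or under the floor. These comparisons share groups and are given side by side. The median log2 difference between FlipFlop CD4 and FlipFlop CD8 was −0.01 over the 8 genes (range −0.75 to 0.90) and 0.036 over all tested genes. *Cd163l1* and *Gas7* reached 1 CPM only in B6 CD8 and *Dmrta1* only there and in 1 FlipFlop CD4 library, so these 3 passed the filter through the group that chose them.

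To place the 8 genes among other CD8 genes, the share of the B6 difference found in FlipFlop CD4 was computed for every gene that was over 5-fold higher in B6 CD8 than in B6 CD4 at an unadjusted p under 0.0001 (limma); 69 genes, or 0.595% of those tested, were so, and all 8 were among them. The 8 genes were chosen for this difference and for not being restored, so neither their place in the set nor their low shares is a finding. Their number in the set was 5 without B6 CD4 replicate 1, B6 CD4 replicate 2 or B6 CD8 replicate 2. It was 4 among genes averaging at least 5 CPM, where the set held 47 genes and *Dmrta1*, *Cd163l1* and *Gas7* were not fitted. A share of 0 is the B6 CD4 level and 1 the B6 CD8 level. The 8 genes had shares of −0.46 for *Baiap3*, −0.13 for *Cd163l1*, −0.10 for *Plek*, −0.07 for *Gas7*, 0.01 for *Sytl3*, 0.12 for *Plac8*, 0.35 for *Dmrta1* and 0.63 for *Samd3*, with a median of −0.03. The median of the other 61 genes was 0.82, and 37 of the 61 lay over 0.75. Without FlipFlop CD4 replicate 3 the share of *Dmrta1* was 0.17 and that of *Samd3* 0.48. Computed in the same way for FlipFlop CD8, the share was 0.45 for *Samd3* and 0.09 for *Dmrta1*. Below 0.25 lay 16 genes, of which 6 were among the 8. The count of genes below 0.25 fell to 7 of 52 with a pseudocount of 1 and to 5 of 47 among genes averaging at least 5 CPM. The set itself was smaller in both, so the fall is partly one of genes that left it.

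The other 10 genes below 0.25 were *Cd8a*, whose locus was altered, 4 genes of the natural killer gene complex on chromosome 6 (*Klra7*, *Klra6*, *Klrc1* and *Klre1*), *Gm44174* and the potassium channel gene *Kcnj8*, also on chromosome 6, and *Cdh1*, *Nrp2* and *Wdr95* elsewhere. *Nrp2*, a semaphorin co-receptor, was at 26.7 ± 2.73 CPM (SD, n = 3) in B6 CD8 and at 4.28 ± 1.53 CPM in FlipFlop CD4. *Cdh1*, which encodes E-cadherin, was at 8.63 ± 2.34 CPM in B6 CD8 and at 1.58 ± 0.611 CPM in FlipFlop CD4. None of the 8 genes lies on chromosome 6, but they were chosen from outside the coreceptor and killer receptor loci, so this was partly fixed by the choice. The *Klra* genes are a multigene family whose reads the counting could have split between near-identical copies.

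**Figure D2:**
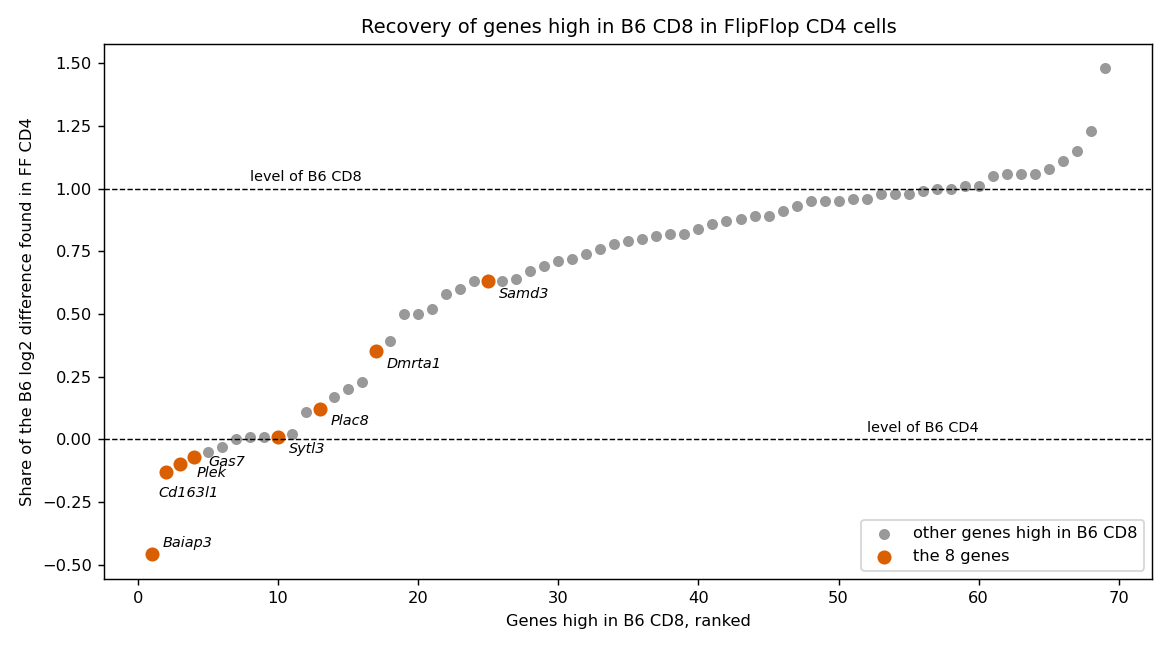
Share of the log2 difference between B6 CD8 and B6 CD4 that was found in FlipFlop (FF) CD4 cells (vertical axis, no unit) for 69 genes high in B6 CD8, ranked from lowest to highest. Orange points are the 8 genes and grey points the other 61; 6 of the 8 lie under 0.25, *Dmrta1* at 0.35 and *Samd3* at 0.63, while the grey points have a median of 0.82.

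Among themselves, the 8 genes correlated over the 12 libraries on the log2 scale with Pearson's r from 0.53 (*Samd3* and *Baiap3*) to 0.97 over 28 pairs. The genes whose log2 levels followed the mean of the 8 most closely were *Kcnj8* (r = 0.98), *5430427O19Rik* (0.97), *Gm44174* (0.97), *Prss30* (0.97), *Klra6* (0.96), and *Trav16*, *Bivm*, *Wdr95*, *Sntb2* and *Pltp* (0.95 each). These values are over 12 libraries that share their groups and library depth, and they are a description only. *Gm44174* was at 2.39 to 2.81 CPM in B6 CD8 and listed at 0 in 8 of the other 9 libraries. *Prss30*, a serine protease gene of chromosome 17, was at 1.08 to 1.46 CPM in B6 CD8 and at 1 read or fewer in every other library. The gene closest to *Samd3* was *Chst11* (r = 0.97), a chondroitin sulfotransferase, at a mean of 15.7 CPM in B6 CD8, 8.11 in FlipFlop CD4 and 7.79 in FlipFlop CD8. The closest to *Dmrta1* were *1700062C10Rik* (0.98) and *Zfp296* (0.97), and the latter had a mean of 6.96 CPM in B6 CD8, against 2.61 CPM in FlipFlop CD4. *Klra6* and *Gm44174* (0.97 each) were closest to *Plac8*, *Gm44174* and *Prss30* (0.98 each) to *Cd163l1*, and *Prss30* and *Klra6* (0.94 each) to *Baiap3*. *Sytl3* was closest to *Pltp* (0.98) and *Zfp839* (0.94), *Plek* to *Ctla2b* (0.96) and *Klrc1* (0.95), and *Gas7* to the T cell receptor segments *Trbv17* and *Trav16* (0.97 each). *Trbv17* had means of 18.6 CPM in B6 CD8 and 6.63 to 8.39 CPM in the other groups.

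A list of memory and effector CD8 T cell genes was compared between the groups (limma, adjusted p over all 11595 tested genes); it was drawn up with earlier results known and is not independent evidence. In FlipFlop CD4 against B6 CD8, 12 of 39 tested genes were lower and 1 was higher, where 3.75% of all genes were lower and 4.17% higher, and the median log2 difference was −0.64 against −0.001 over all genes. Among the genes that passed the test, the largest falls were those of *Il18rap*, a subunit of the interleukin-18 receptor (log2 difference −2.20 ± 0.44 SE, adjusted p = 0.00931), the chemokine receptor gene *Ccr2* (−1.97 ± 0.29, adjusted p = 0.00106) and *Klrk1*, which encodes the receptor NKG2D (−1.86 ± 0.30, adjusted p = 0.00207). *Cxcr6*, *Tbx21*, *Ly6c2*, *Anxa2*, *Klrd1*, *Xcl1*, *Il2rb*, *Fasl* and *Il10ra* were lower as well. Of these, *Fasl*, *Ccr2* and *Il10ra* were already lower in B6 CD8 than in B6 CD4, by log2 differences of −1.85, −0.87 and −0.73 (adjusted p = 4.38e-06, 0.0419 and 9.62e-04). The chemokine gene *Ccl5* (−2.14 ± 0.68, adjusted p = 0.0799) and the granzyme gene *Gzmm* (−2.88 ± 0.85, adjusted p = 0.0599) did not pass the test. *S100a4*, a calcium-binding protein, was higher by 1.08 ± 0.24 (adjusted p = 0.0173). *Eomes* was at 64.9 ± 25.1 CPM (SD, n = 3) in FlipFlop CD4, against 69.1 ± 4.71 CPM in B6 CD8 (log2 difference −0.16, adjusted p = 0.812), and *Prf1*, which encodes perforin, was at 213 ± 13.9 and 157 ± 6.88 CPM (0.44, adjusted p = 0.0911). Leaving out B6 CD8 replicate 2, B6 CD8 replicate 3 or FlipFlop CD4 replicate 2 left 7 genes lower each time, and a fit to the 6 libraries of the pair gave 20. The calls lost without 1 library were those of *Tbx21*, *Ly6c2*, *Xcl1*, *Fasl*, *Il10ra* and *S100a4*, the latter with an adjusted p of 0.0828 without B6 CD8 replicate 2 and also lost without FlipFlop CD4 replicate 1 or 2; the other 7 genes named here as called kept theirs without any single library.

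In FlipFlop CD8 against B6 CD4, 22 of the 39 were higher and 1, *Klrd1*, was lower, where 13.2% and 14.4% of all genes were. Markers of other T cell states moved in the same comparison. Of the regulatory T cell markers 7 of 8 were higher, and their sum was 515 to 623 CPM in B6 CD4, against 1181 to 1337 CPM in FlipFlop CD8. Of 10 tested γδ T cell markers 7 were higher, and *Trdc*, the constant gene of the δ chain, was lower (−0.52 ± 0.11 SE, adjusted p = 0.00757). Their summed level was 56.5 to 78.2 CPM, against 125 to 136 CPM, of which *Maf*, a factor that helper cells also express, made up 33.7 to 53.1 and 78.3 to 85.0 CPM. Of 10 naive T cell markers 6 were lower and 0 higher (summed level 7336 to 7457 CPM, against 5229 to 5416 CPM). Their part in the counts of memory and effector genes was not tested. *Il2rb*, the interleukin-2 receptor β chain, was at 353, 339.9 and 352 CPM in FlipFlop CD4 and at 547, 585 and 562 CPM in B6 CD8, but at 646, 624 and 533 CPM in FlipFlop CD8 and 249, 307 and 296 CPM in B6 CD4. FlipFlop CD8 thus reached the level of B6 CD8, and FlipFlop CD4 came nearer to B6 CD4. In B6 CD8 against B6 CD4, 19 of the 39 were higher and 12 lower (10.8% and 14.6% of all genes), and in FlipFlop CD4 against FlipFlop CD8, 7 were higher and 20 lower (15.3% and 16.0%). The summed level of the list was 3021 to 3291 CPM in B6 CD8, 1824 to 1943 CPM in FlipFlop CD4, 1734 to 2621 CPM in FlipFlop CD8 and 928 to 1154 CPM in B6 CD4. In FlipFlop CD8 the 2621 CPM was that of replicate 1, the library with high *Nkg7*, *Gzmm* and *Ccl5*, against 1944 and 1734 CPM in replicates 2 and 3.

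**Figure D3:**
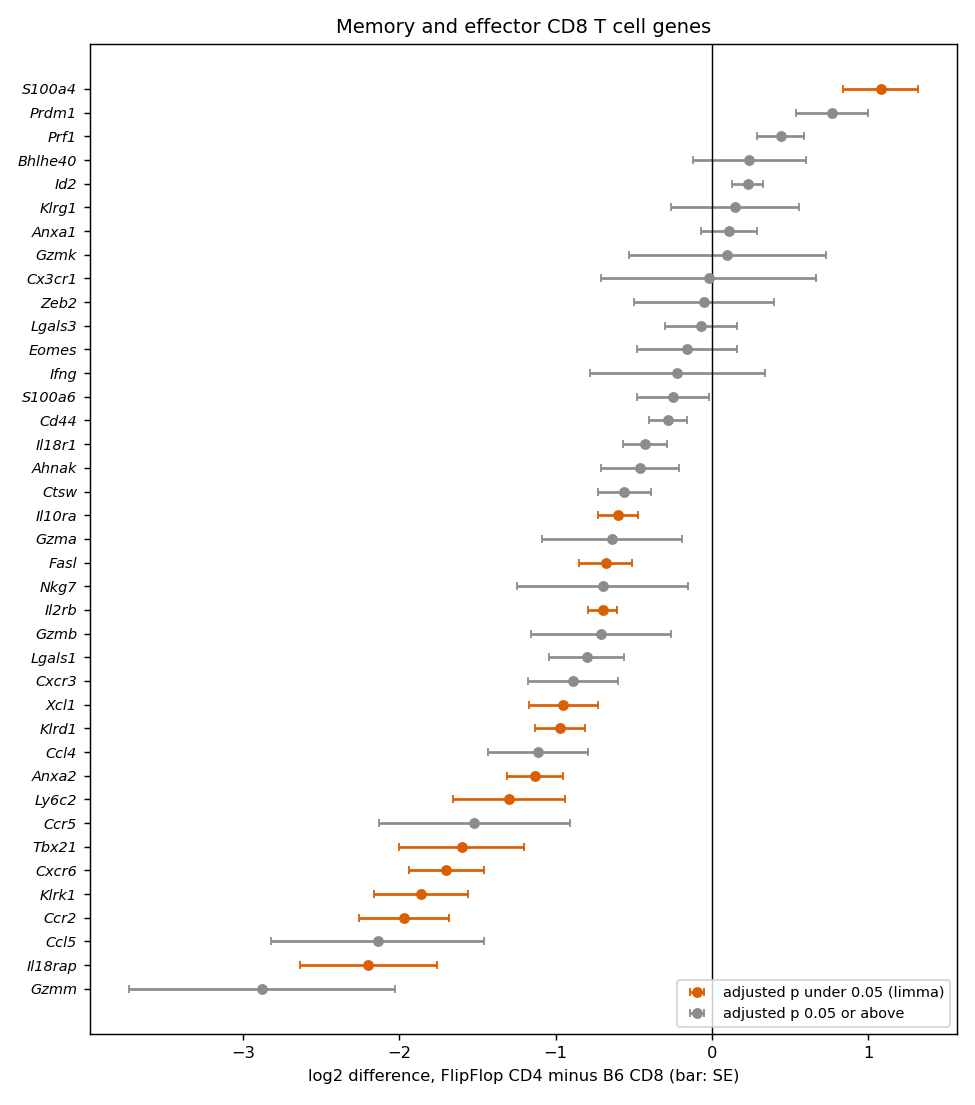
Difference of FlipFlop CD4 from B6 CD8 on the log2(CPM + 0.5) scale for the 39 tested memory and effector CD8 T cell genes, 3 libraries per group; points are estimates, bars standard errors, and orange marks an adjusted p under 0.05 (limma). Of the orange points, 12 lie below 0 and 1, *S100a4*, above.

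Markers of other cells did not all move with the 8 genes. The counts in this paragraph stand beside 4.17% of all tested genes that were higher and 3.75% that were lower in the same comparison. In FlipFlop CD4 against B6 CD8, 1 of 6 tested NK cell markers (*Tyrobp*) was lower; *Ncr1* and *Klra8* were not analysed here, and without *Eomes*, which cytotoxic T cells also express, the other 5 summed to 7.56 to 14.9 CPM in B6 CD8, 7.50 to 8.63 in FlipFlop CD4, 23.2 to 27.7 in FlipFlop CD8 and 8.75 to 11.9 in B6 CD4. With *Eomes* the sums were 73.1 to 86.4, 50.9 to 99.6, 31.4 to 48.9 and 15.3 to 20.1 CPM in the same order, so *Eomes* sets the order of the groups in the full sum. Of 10 tested γδ T cell markers, 1 (*Maf*) was higher and 2 were lower, with summed levels of 17.0 to 18.2 CPM in B6 CD8, against 13.8 to 14.9 CPM in FlipFlop CD4 (16.3 to 17.4 CPM, against 10.0 to 11.8 CPM, without *Maf*). *Trdc* was at 7.02 to 7.90 CPM in B6 CD8, against 7.32 to 8.70 CPM in FlipFlop CD4. Of 7 monocyte, macrophage and neutrophil markers 0 passed the test (limma; 0 at an unadjusted p under 0.05), with summed levels of 11.8 to 29.0 CPM in B6 CD8 and at most 12.9 CPM in FlipFlop CD4. Of 9 B cell markers 0 passed (3 were lower at an unadjusted p under 0.05), with sums of 568 to 706 CPM over all libraries, of which *Ighm* made up 467 to 636 CPM. Without *Ighm* the sums were 68.5 to 100.4 CPM in B6 CD8, 50.4 to 76.2 in FlipFlop CD4, 62.1 to 70.8 in FlipFlop CD8 and 77.5 to 101 CPM in B6 CD4. Further, 1 of 7 dendritic cell markers (*Itgax*) and 1 of 4 red blood cell markers (*Hbb-bt*) were lower. Of the platelet markers only *Itgb3*, which T cells also express, was analysed here, and it was higher. Regulatory T cell markers were higher for 4 of 8, naive T cell markers higher for 1 and lower for 1 of 10, and of 12 defining T cell markers *Cd4* was higher and *Cd8a* lower. The part of these cells in the levels of the 8 genes was not tested.

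Of 43 tested relatives of the 8 genes, 6 passed the test (14.0%), where 7.92% of all tested genes did. Of 17 tested genes of granule exocytosis, 1 was higher and 0 were lower in the FlipFlop CD4 cells (limma, against B6 CD8; at an unadjusted p under 0.05, 4 were higher and 1 lower). That gene was *Sytl1*, another Rab27-binding synaptotagmin-like gene, which was at 12.7 ± 1.13 CPM (SD, n = 3) in B6 CD8, against 20.5 ± 1.40 CPM in FlipFlop CD4 (log2 difference 0.67 ± 0.13 SE, adjusted p = 0.00685) and was also higher in FlipFlop CD8 than in B6 CD4 (0.96 ± 0.13, adjusted p = 3.87e-04). *Unc13d*, a Munc13 relative of *Baiap3* needed for granule release, was at 108 ± 4.28 CPM in B6 CD8, against 111 ± 1.26 CPM in FlipFlop CD4. *Rab27a* was at 66.4 ± 1.70 and 58.8 ± 2.92 CPM (adjusted p = 0.171). Of 12 tested F-BAR genes, relatives of *Gas7*, 3 were higher and 1 was lower; no pleckstrin relative was tested. *Pstpip2*, an F-BAR gene, was higher in FlipFlop CD4 by 3.42 ± 0.27 (adjusted p = 6.41e-06) and in FlipFlop CD8 by 3.68 ± 0.27 (adjusted p = 4.27e-06), at 5.29 and 23.7 CPM against 0.0221 and 1.32 CPM; against the floor of 3 reads per library in B6 CD8, it was at least 47.9-fold higher in FlipFlop CD4. *Pacsin1* and *Arhgap4* were higher by 0.42 (adjusted p = 0.0384) and 0.23 (adjusted p = 0.0250); *Pacsin1* lost its call when any of 5 libraries was left out (highest adjusted p = 0.147, without FlipFlop CD4 replicate 3) and *Arhgap4* when any of 4 was left out (0.103, without B6 CD8 replicate 2). *Srgap3*, a GTPase-activating F-BAR protein, fell by 1.81 ± 0.20 (adjusted p = 1.11e-04), from 2.31 ± 0.460 to 0.295 ± 0.0772 CPM. Of 9 tested SAM domain genes 0 passed the test (limma), and 0 had an unadjusted p under 0.05, and 9 further relatives of *Plac8* and *Dmrta1* were not analysed here.

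Of 5 tested scavenger receptor cysteine-rich genes 1 was lower (limma, FlipFlop CD4 against B6 CD8), where 3.75% of all tested genes were. That gene lies beside *Cd163l1*. *5830411N06Rik*, a relative of *Cd163l1* that starts 29.0 kb from it, was at 4.57, 4.92 and 4.41 CPM in B6 CD8 and at 0.558, 0.254 and 0.297 CPM in FlipFlop CD4, a fall of 2.58 ± 0.28 (SE; limma adjusted p = 1.07e-04). It was at 0.902, 1.45 and 2.57 CPM in B6 CD4 and at 3.92, 2.84 and 1.83 CPM in FlipFlop CD8. Unlike *Cd163l1*, it was therefore not low in FlipFlop CD8, where it differed from B6 CD4 by 0.68 ± 0.28 (adjusted p = 0.0889). Reads of the related genes could have been split between them, and the part of this in their levels was not tested.

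Genes next to the 8 were examined on each side, 5 tested genes each way and 80 in all. In FlipFlop CD4 against B6 CD8, 8 were higher and 8 lower, where 4.17% and 3.75% of all genes were. In FlipFlop CD8 against B6 CD4, 11 were higher and 10 lower, which was near the 13.2% and 14.4% of all genes. In both lineages and in the same direction, 11 of 80 differed, where 3.92% of all tested genes did so. Of these, 5 of 10 lay around *Sytl3*, 3 of 10 around *Baiap3*, 2 around *Dmrta1*, 1 around *Plek*, and none around *Plac8*, *Samd3*, *Cd163l1* or *Gas7*. The farthest of the 10 neighbours lay from 511 to 5286 kb away, depending on the gene. With 1 library left out at a time, 7 to 12 of the 80 differed in the same direction in both lineages, with 5 to 6 around *Sytl3*, 1 to 4 around *Baiap3* and 0 to 2 around *Dmrta1*. The count of 0 for *Dmrta1* came without B6 CD8 replicate 1 or 2 or FlipFlop CD4 replicate 1 or 2, that of 1 for *Baiap3* without FlipFlop CD4 replicate 3, and the total of 7 without FlipFlop CD4 replicate 2. *Sytl3* and *Baiap3* are both on chromosome 17. *Tagap1*, which starts 296 kb from *Sytl3*, rose from a mean of 7.16 CPM in B6 CD8 to 37.6 CPM in FlipFlop CD4 (log2 difference 2.32 ± 0.13 SE, adjusted p = 2.95e-07) and from 6.25 CPM in B6 CD4 to 37.8 CPM in FlipFlop CD8 (2.53 ± 0.13, adjusted p = 1.92e-07). *Tmem181b-ps*, 221 kb away, was higher by 1.18 and 1.14, and *Rnaset2b*, 312 kb away, fell by 0.94 and 1.08. *Gnptg*, a phosphotransferase subunit that starts 9.33 kb from *Baiap3*, fell by 1.15 ± 0.09 (adjusted p = 9.38e-06) and 0.87 ± 0.09 (adjusted p = 9.63e-05), so that *Baiap3* and its neighbour were both lower in FlipFlop cells of either lineage. *Gm12663*, 336 kb from *Plek*, was at 1.18 and 1.25 CPM in FlipFlop CD4 and FlipFlop CD8 and near 0 in B6 cells, and its adjusted p of 0.0129 in the cytotoxic pair became 0.0559 without FlipFlop CD4 replicate 2. *Tagap1*, *Tmem181b-ps*, *Rnaset2b* and the *Dynlt1* genes of this region belong to sets of near-identical copies, and their counts are uncertain. Around *Plac8*, 0 of 10 neighbours out to 514 kb passed the test in either lineage (limma). At an unadjusted p under 0.05 there were 0 in the cytotoxic pair, and 1 higher and 4 lower in the helper pair.

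**Figure D4:**
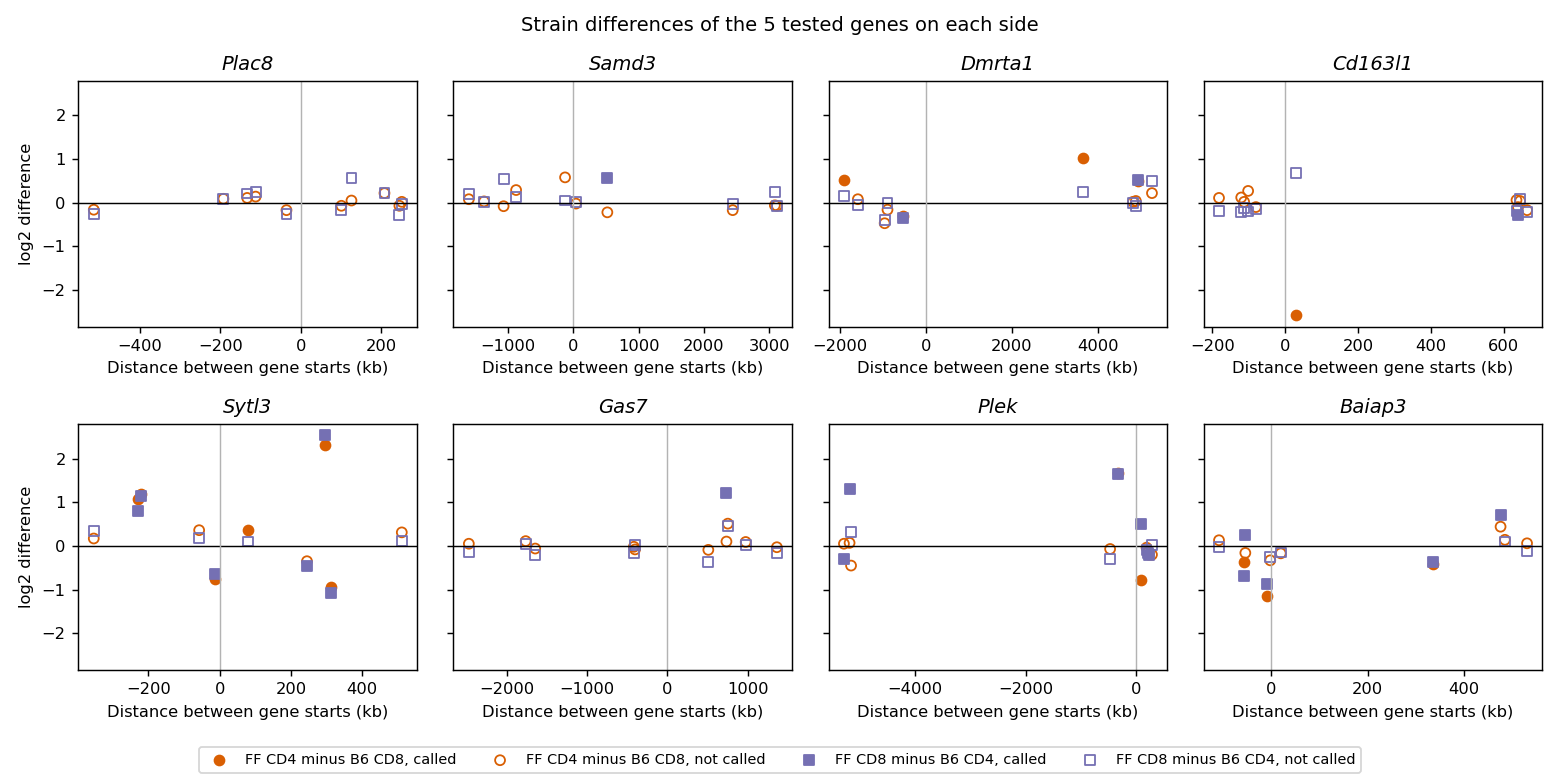
Log2 difference between FlipFlop and B6 cells (vertical axis, log2(CPM + 0.5) scale) for the 5 tested genes on each side of each of the 8 genes, against the distance between gene starts in kb, with 3 libraries per group. Orange circles are the cytotoxic pair, purple squares the helper pair, and filled marks have an adjusted p under 0.05 (limma); filled marks of both kinds coincide around *Sytl3* and *Baiap3* and are missing around *Plac8*.

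Exons of *Sytl3* overlap those of *Ezr*, exons of *Plek* those of *Cnrip1*, exons of *Baiap3* those of *Tsr3* and exons of *Gas7* those of *Glp2r*, each on the opposite strand. The sources used here do not say that the counting used strand. The first 3 pairs meet only at their ends. *Sytl3* ends at 6738044 and *Ezr* starts at 6738041. *Plek* ends at 17052381 and *Cnrip1* starts at 17051586. *Tsr3* ends at 25242798 and *Baiap3* starts at 25242659. *Ezr* was at a mean of 474 CPM in B6 CD8, against 613 CPM in FlipFlop CD4, a difference of 0.37 ± 0.07 (SE), opposite in sign to that of *Sytl3*. *Tsr3* differed by −0.33 and *Cnrip1* by −0.77, the latter at means of 1.21 and 0.499 CPM.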

How the data were processed

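Total RNA of LN T cells sorted as CD4 or CD8 from either strain was sequenced in 4 groups of 3 libraries. The submitters' processing notes name Trimmomatic, TopHat and mm10, while the study's methods name STAR; the counting program, annotation and low-count filter are not given in the sources used here. The deposited values are a signal of read counts that the authors divided by library size and a TMM factor (scaled CPM), for 12809 genes; column sums ranged from 875501 to 1081793. Between 84.8% and 86.4% of values under 100 CPM were whole reads (within 0.005 read), so no count test was run. Pseudocount 0.5 was added, and the 11595 genes that reached 1 CPM in 3 or more libraries were fitted over all 12 libraries with limma 3.58.1 in R 4.3.3, with Benjamini-Hochberg adjustment and a limit of 0.05. The fit was tested on simulated data.

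The 8 genes, lists and rules were chosen with earlier results of these data known, so the lists are not independent evidence. Named genes were the 8 genes; up to 3 called genes per direction and list with the largest difference between FlipFlop CD4 and B6 CD8; the 10 genes most like the mean of the 8 and 2 per gene, of which 1 is not reported here; up to 5 neighbours called in the same direction in both lineages; genes with a share under 0.25; and markers that moved. *Eomes*, *Prf1*, *Unc13d*, *Rab27a*, *Nkg7*, *Gzmm*, *Ccl5*, *Cnrip1*, *Ezr*, *Tsr3* and the other called genes listed without values were added after their values were seen. Gene positions are from GENCODE M21 (GRCm38, the mm10 build), whose identifiers matched all 12809. Same-numbered libraries of the FlipFlop groups deviated together (r = 0.443, 0.271 and 0.513 for replicates 1, 2 and 3), those of B6 less so (0.184, 0.089 and 0.352), and those of FlipFlop CD4 and B6 CD8 not (−0.085, −0.007 and 0.073). Alternatives varied the pseudocount, filter, scaling, call threshold, samples fitted, replicate block and each library.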

Additional observations from a re-analysis of the deposited data

Results flagged for a closer look

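Among 30 named genes other than the 8, the strain difference was compared between lineages, as the difference of FlipFlop CD4 from B6 CD8 minus that of FlipFlop CD8 from B6 CD4 (limma interaction, adjusted over all tested genes). It differed for 12 genes, and it was negative in each of the 12. Over all 11595 tested genes it differed for 5.49%, and 3.78% differed with a negative value. In the memory and effector list these were *Ccr2* (−3.75, adjusted p = 2.62e-04), *Il18rap* (−3.62, 0.00573), *Ly6c2* (−3.43, 0.00189), *Cxcr6* (−3.35, 1.79e-04), *Klrk1* (−3.11, 0.00109), *Tbx21* (−2.78, 0.0134), *Anxa2* (−2.01, 6.68e-04), *Xcl1* (−1.91, 0.00419), *Il2rb* (−1.78, 1.12e-05) and *Il10ra* (−0.80, 0.0241), each value being followed by its adjusted p. All 10 had a negative difference in the cytotoxic pair, past the test, and a positive one in the helper pair. *5830411N06Rik*, the neighbour of *Cd163l1*, had −3.25 (adjusted p = 5.87e-04), and the F-BAR gene *Srgap3* had −2.35 (adjusted p = 4.94e-04). These genes had been named because they differed in the cytotoxic pair, and that contrast is part of the value compared here, so both the sign and the count of 12 are partly fixed by that choice and nothing is read from the count against 5.49%.

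*Samd3* drew attention because every FlipFlop CD4 library lay below every B6 CD8 library while every FlipFlop CD8 library lay above every B6 CD4 library. Its difference of FlipFlop CD8 from B6 CD4 was 1.61, against −1.35 in the cytotoxic pair. For *Dmrta1* the fitted values were 0.33 and −2.24, and the first compared 7, 3 and 5 reads with 0, 1 and 1 reads, which did not overlap but lay partly at or under the floor of 3 reads. Whether the lineages differ was not tested for either, since the genes were chosen on the values of the cytotoxic pair.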

How the results depend on the processing

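All 8 genes kept the sign of both of their main differences under every alternative that fitted them. *Dmrta1*, *Cd163l1* and *Gas7* were not fitted in the run on genes averaging at least 5 CPM. Of the values of the 8 genes, 16 moved by more than the pooled SD of the log2 values in the groups compared, all with the pseudocount at 0.1 or 1. That SD is taken from those groups alone, unlike the printed SE, so a small shift passes it where libraries lie close, as for *Sytl3* (−3.04 and −2.74 in place of −2.90). *Cd163l1* in FlipFlop CD4 against B6 CD8 ranged from −5.34 to −2.67. Under an unadjusted p under 0.0001 with over 5-fold change, 0 memory and effector genes were lower, 0 were higher, 2 relatives and 1 neighbour differed, in place of 12, 1, 6 and 16. Fitting only the 6 libraries of the comparison gave 20 lower and 2 higher memory and effector genes, and the replicate block gave 16 lower and 2 higher. Genes with a share under 0.25 numbered 5 of 47 among genes averaging at least 5 CPM and 7 of 52 with pseudocount 1, in place of 16 of 69. Leaving out 1 library at a time gave 7 to 17 lower and 0 to 2 higher memory and effector genes. For the named genes outside the 8, no value changed sign, 535 kept their call and 59 lost it; *Ly6c2* lost it under 10 alternatives, *Mtap* under 7 and *Pacsin1* under 6. The cause of these changes was not tested.

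The replicate number was added as a block. Within a strain the block was the replicate of that strain, and over all tested genes the calls in FlipFlop CD4 against FlipFlop CD8 moved from 3633 to 4221. Between strains the block was the number alone, which joins libraries of different mice that nothing in the labels links. With it the calls in FlipFlop CD4 against B6 CD8 moved from 918 to 1142, and this block has no basis in the design. In the latter it changed the scavenger receptor list from 1 to 2 lower. Outside B6 CD8, *Gas7* and *Cd163l1* held at most 27 and 14 reads per library and *Dmrta1* at most 12, apart from 65 in FlipFlop CD4 replicate 3, so counting error is large in these groups. With 3 libraries per group, a p that misses the threshold does not show that levels are equal.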
